A study of Mus musculus with 6 samples.

Results

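Axon guidance and sorting molecules decide where the axon of an olfactory sensory neuron ends in the olfactory bulb. The genes described here were 10 named genes of this kind: the neuropilins Nrp1 and Nrp2, the plexin Plxna1, the semaphorins Sema3a and Sema3f, the Slit receptor Robo2 and its ligand Slit1, the adhesion molecules Kirrel2 and Kirrel3, and the protocadherin Pcdh10. They were taken by symbol from a table of 40273 genes, and all 10 were found once. The samples were olfactory mucosa, the nasal tissue with the sensory neurons, from 3 mice in which the eC element was deleted (delta eC) and 3 wild-type controls. All 6 mice were males of the mixed strain 129S6;C57BL/6J on postnatal day 30, and each library came from 1 animal. Whether 1 or both copies were deleted is not stated in the labels. The eC element covers 1005 bp of chromosome 7 (102916999 to 102918004) and is titled a class I odorant receptor enhancer; the labels tie no build to these coordinates, which are read here as GRCm38. The comparison asks whether the genes that steer the axons have another level in mucosa that lacks it.

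Sensory neurons that express the same odorant receptor send their axons to the same glomeruli, the units of the bulb's map. Neuropilins on the axon bind secreted class 3 semaphorins, Nrp1 mainly Sema3a and Nrp2 mainly Sema3f, and pass the signal on through plexins. Robo receptors bind Slit proteins, which repel axons, and the Kirrel and protocadherin molecules bind their own kind on neighbouring axons. In mice the amounts of several of these molecules follow the receptor a neuron has chosen and the activity of that neuron.

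None of the 10 genes passed the test between the deletion and the controls. By limma (log2 of the normalized count + 1, Benjamini-Hochberg adjustment over all 20368 genes tested, threshold 0.05), 0 of the 10 were called, where 15 of all genes tested were, or 0.0736% (6 higher in the deletion libraries, 0.0295%, and 9 lower, 0.0442%). At an unadjusted p under 0.05 limma had 0 of the 10, edgeR 1 (Pcdh10), DESeq2 1 (Plxna1) and limma voom 0. Of all genes tested 2.7% had such a p by limma and 2.74% by edgeR. That share was not taken for DESeq2 and limma voom. The groups overlapped for each of the 10, while 7.68% of all genes tested had groups that did not overlap. For 9 of the 10 the log2 fold change was within 0.3 of 0 and its 95% confidence interval within 0.6. The tenth, Pcdh10, differed 9.47-fold between its lowest and its highest library. The median log2 fold change of the 10 was 0.01, and that of all genes tested was 0.01 as well.

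Normalized counts are the authors' gene read counts after scaling each library by its size factor. Behind them stood 49279931, 34169776 and 30342763 reads assigned to genes in the deletion libraries and 50906277, 31281010 and 31100948 in the controls (replicates 1, 2 and 3). The libraries fell into 2 sets by how many genes had any read, a split that no label explains: deletion replicates 1 and 2 and control replicate 1 (set A) had 26564 to 27879 of them, and deletion replicate 3 and control replicates 2 and 3 (set B) had 36197 to 37456. For the 10 genes, and for pathway genes that moved with it, values are therefore also given from a limma model that holds group and set together. The mature sensory neuron marker Omp was at 125370 to 181804 normalized counts, so the tissue label held. No gene of the 10 had fewer than 563 reads in any library.

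**Figure D1:**
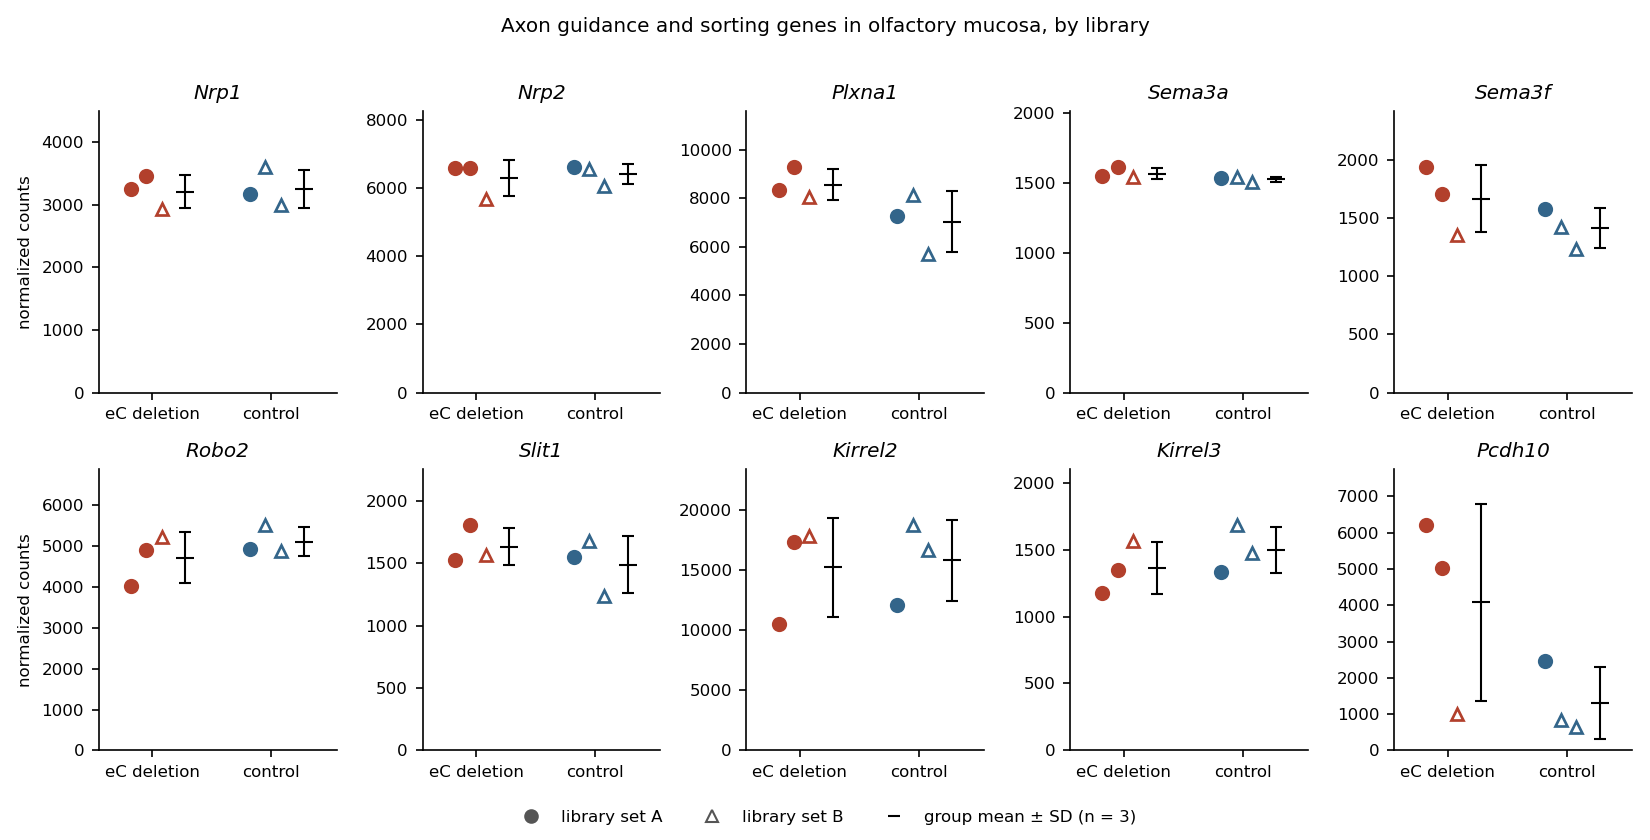
Normalized counts (linear axes from 0) of the 10 genes in each library, with the 3 deletion libraries left of the 3 controls, library set A as filled circles, set B as open triangles, and the group mean ± SD beside the points. Sema3a stays between 1507 and 1611 in all 6 libraries, whereas Pcdh10 lies between 2451 and 6199.9 in set A and between 655 and 1016 in set B.

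The start regions of the 2 genes that varied most between libraries, Pcdh10 and Kirrel2, are shown first because the library differences described further on concern them. The windows are from RefSeq on GRCm38.p6 and hold 250 bases before and 50 bases after the annotated start, on the gene's own strand. Capitals mark matches on either strand to TGACG, the short site bound by CREB factors, to CCCNNGGG, the core bound by Ebf factors of olfactory neurons, and to TAATTA, a homeodomain core.
Pcdh10 (chr3:45378148-45378447, plus strand): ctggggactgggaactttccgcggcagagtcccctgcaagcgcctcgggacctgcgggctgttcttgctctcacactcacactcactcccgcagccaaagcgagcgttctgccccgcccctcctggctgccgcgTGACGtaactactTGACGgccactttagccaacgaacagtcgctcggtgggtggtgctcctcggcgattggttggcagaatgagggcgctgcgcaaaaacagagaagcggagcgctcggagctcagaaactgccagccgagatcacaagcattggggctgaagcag
Kirrel2 (chr7:30457466-30457765, minus strand): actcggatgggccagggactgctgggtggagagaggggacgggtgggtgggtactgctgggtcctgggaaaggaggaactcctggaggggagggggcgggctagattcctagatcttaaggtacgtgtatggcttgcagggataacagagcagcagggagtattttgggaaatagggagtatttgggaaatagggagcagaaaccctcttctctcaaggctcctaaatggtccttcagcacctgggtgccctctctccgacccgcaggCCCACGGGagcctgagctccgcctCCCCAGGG
The Pcdh10 window held 2 matches to TGACG, beginning 116 and 103 bases before the start, and none to the other motifs. The Kirrel2 window held 2 matches to CCCNNGGG, both after the start, and none to the others. Of 32851 promoter windows of the same length, 20.8% held TGACG, 13.7% CCCNNGGG and 5.29% TAATTA. The full palindrome TGACGTCA, in 1.79% of all windows, was in neither. Windows were on hand for 6 of the 10 genes, and those of Nrp1, Nrp2 and Sema3a held none of these motifs, while 1 of the 3 Robo2 windows held a single CCCNNGGG. That window (chr16:74411776-74412075) lies at the start of the annotated Robo2 span used here. The other Robo2 windows, at 75092721 and 75447244, lie outside that span. Such matches describe letters and not bound sites.

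The neuropilins, the receptors for class 3 semaphorins, differed between the groups by less than the spread between libraries. Nrp1 (ENSMUSG00000025810.9, chromosome 8, 128358604 to 128503363), the receptor subunit for Sema3a, had 3244, 3457 and 2923 normalized counts in the deletion libraries and 3166, 3595 and 2997 in the controls. The values of the groups interleaved. The log2 fold change was -0.02 ± 0.09 (SE; adjusted p = 0.988, limma), with a 95% confidence interval of 0.851- to 1.14-fold. Nrp2 (ENSMUSG00000025969.15, chromosome 1, 62703285 to 62818695), which binds Sema3f, had 6602, 6598 and 5692 normalized counts in the deletion libraries and 6606, 6574 and 6070.2 in the controls. The lowest library of each group was of set B. Its log2 fold change was -0.03 ± 0.08 (SE; adjusted p = 0.982, limma), with an interval of 0.863- to 1.11-fold. In the model with the set the values were -0.04 for Nrp1 and -0.08 for Nrp2 on the log2 scale.

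Plxna1, which encodes plexin A1, a signalling partner of the neuropilins, did not pass the test. The gene (ENSMUSG00000030084.11, chromosome 6, 89316314 to 89362620) had 8330.3, 9266 and 8051 normalized counts in the deletion libraries and 7283, 8136 and 5691 in the controls. The groups overlapped only through deletion replicate 3 and control replicate 2. The log2 fold change was 0.29 ± 0.13 (SE; adjusted p = 0.982, limma), with a 95% confidence interval that began at 0.999-fold and ended at a log2 of 0.59. The log2 difference was 0.27 within set A and 0.24 within set B, and 0.26 ± 0.12 with the set as a term (adjusted p = 1.00, limma). In the authors' deposited table, where the fold runs control over deletion, Plxna1 had a log2 value of -0.19 with p = 0.0305 and an adjusted p of 1.00. That value is smaller in size than the limma one, while the group means of the same counts differed 1.21-fold. The annotated genes Gm26811 and Gm44207 overlap Plxna1 on the opposite strand and had at most 12.8 and 38.6 normalized counts.

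The 2 semaphorins differed in how steady they were. Sema3a (ENSMUSG00000028883.17, chromosome 5, 13125414 to 13602565), a secreted repellent, had 1551, 1611 and 1539 normalized counts in the deletion libraries and 1533, 1541 and 1507 in the controls. Over the 6 libraries its coefficient of variation was 2.23%, where counting error alone gives 2.57%. It ranked 155 from the lowest among the 20368 genes tested. The log2 fold change was 0.04 ± 0.06 (SE; adjusted p = 0.982, limma), with a 95% confidence interval of 0.93- to 1.13-fold, the narrowest of the 10, and was 0.03 in the model with the set. Of 4 annotated genes within its span, Gm42680 on the opposite strand had the most, 129.97 to 197 normalized counts, and reads of such pairs cannot be told apart without the strand setting of the counting. Sema3f (ENSMUSG00000034684.12, chromosome 9, 107681500 to 107710475), the ligand of Nrp2, had 1935, 1707 and 1358 normalized counts in the deletion libraries and 1577, 1423 and 1235 in the controls. The set B libraries were the lower ones in both groups. Its log2 fold change was 0.23 ± 0.14 (SE; adjusted p = 0.982, limma), and 0.12 ± 0.09 with the set as a term (adjusted p = 1.00, limma).

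Robo2 and Slit1, a receptor and its repellent ligand, did not pass either. Robo2 (ENSMUSG00000052516.17, chromosome 16, 73891839 to 74411825) had 4031, 4898 and 5229 normalized counts in the deletion libraries and 4941, 5509.8 and 4885 in the controls. Deletion replicate 1 was the lowest of the 6. The log2 fold change was -0.12 ± 0.10 (SE; adjusted p = 0.982, limma), with a 95% confidence interval of 0.778- to 1.09-fold. Slit1 (ENSMUSG00000025020.11, chromosome 19, 41600257 to 41743665) had 1529, 1805 and 1568 normalized counts in the deletion libraries and 1550.2, 1679.7 and 1239.6 in the controls. Control replicate 3 was the lowest and deletion replicate 2 the highest. Its log2 fold change was 0.14 ± 0.12 (SE; adjusted p = 0.982, limma), with an interval of 0.908- to 1.34-fold. In the model with the set the log2 fold change was -0.07 for Robo2 and 0.11 for Slit1. Slit1 is also made by cells of the bulb, and the 7 markers listed for bulb neurons summed to 2789 to 3229 normalized counts in the deletion libraries and 2582 to 3107 in the controls. Most of that sum was Cdhr1, at 2325 to 2970 over the 6 libraries, followed by Gad2 at 166 to 226. The other 5 markers, Tbx21, Doc2g, Gad1, Slc32a1 and Th, had at most 31.4. The part of bulb tissue in the level of Slit1 was not tested.

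The Kirrel molecules mark axons for local sorting, and in mice Kirrel2 is raised and Kirrel3 lowered by neuronal activity. Kirrel2 (ENSMUSG00000036915.17, chromosome 7, 30447534 to 30457690) had 10494, 17336 and 17875 normalized counts in the deletion libraries and 12134, 18737 and 16652 in the controls. Replicate 1 was the lowest library of each group. The log2 fold change was -0.07 ± 0.23 (SE; adjusted p = 0.982, limma), with a 95% confidence interval of 0.661- to 1.37-fold. In the model with the set it was 0.08 ± 0.16 (adjusted p = 1.00, limma), so that the sign turned. Kirrel2 lies on the chromosome of the deleted element, 72.5 Mb below it, and below the 15 genes called in the whole table, which all lie on chromosome 7 from 80343104 upwards. Kirrel3 (ENSMUSG00000032036.15, chromosome 9, 34485894 to 35036716) had 1175, 1349 and 1563 normalized counts in the deletion libraries and 1336, 1681 and 1477 in the controls. Its 3 lowest libraries were the 3 of set A, in both groups. The log2 fold change was -0.14 ± 0.12 (SE; adjusted p = 0.982, limma), and -0.05 ± 0.08 with the set as a term (adjusted p = 1.00, limma).

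**Figure D2:**
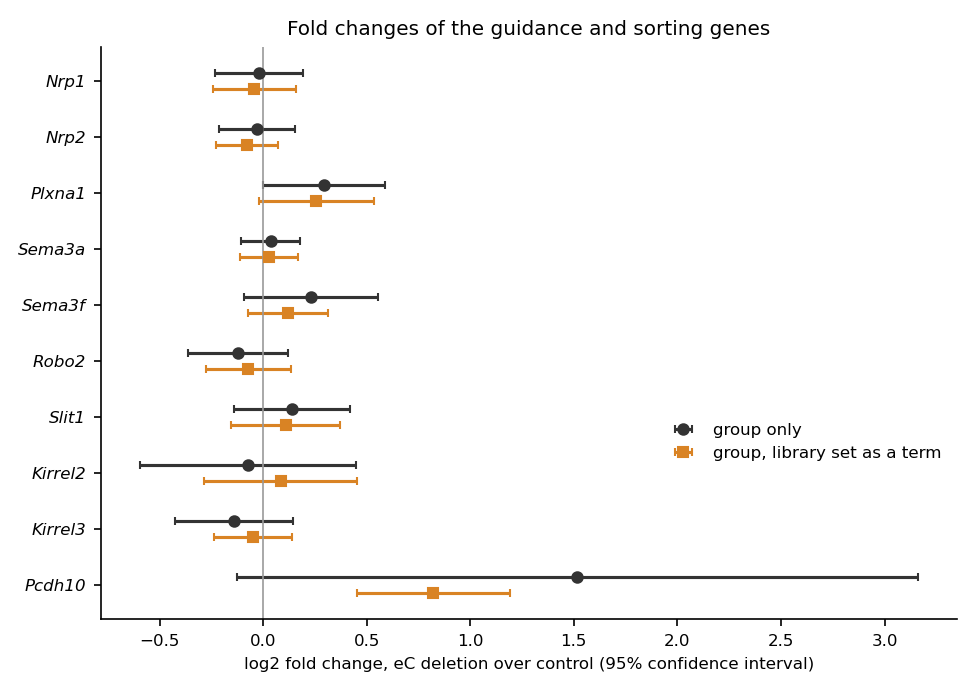
Log2 fold changes, deletion over control, of the 10 genes (points) with 95% confidence intervals (bars), from limma with the group only (black) and with the library set as a further term (orange). The intervals of 9 genes lie within 0.6 of 0, while that of Pcdh10 runs between -0.13 and 3.16 with the group only and between 0.45 and 1.19 with the set as a term.

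Pcdh10 stood apart from the other 9 through its spread between libraries. It encodes protocadherin 10, an adhesion molecule found on subsets of sensory neurons (ENSMUSG00000049100.15, chromosome 3, 45378398 to 45435623). It had 6199.9, 5032 and 1016 normalized counts in the deletion libraries and 2451, 842 and 655 in the controls. The 3 highest libraries were the 3 of set A. Within each set, every deletion library lay above every control: by a log2 difference of 1.19 in set A (2 deletion libraries, 1 control) and of 0.45 in set B (1 deletion library, 2 controls).

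With the group as the single term the log2 fold change of Pcdh10 was 1.52 ± 0.71 (SE; adjusted p = 0.982, limma). Its 95% confidence interval ran from 0.915- to 8.95-fold. In the model with the set it was 0.82 ± 0.16 (SE; adjusted p = 0.216, limma), a 1.77-fold difference that did not pass the threshold over all genes. In that model 36 genes were called in the whole table, or 0.177%, and 0 of the 10. At an unadjusted p under 0.05 it had 1 of the 10, Pcdh10, and 3.66% of all genes tested. Leaving out single libraries moved the log2 fold change of Pcdh10 between 1.03 (without deletion replicate 1) and 2.34 (without deletion replicate 3), and none of these passed (adjusted p between 0.297 and 1.00, limma). The authors' deposited table, coded as control over deletion, had a log2 value of -0.06 for it, with p = 0.0915. The group means of the same normalized counts differed 3.10-fold, so the deposited value is far smaller in size than the limma one. The reason was not tested.

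Between the sets, Pcdh10 was 4.26-fold higher in A than in B with the group as a term, a log2 difference of -2.09 (B minus A). It ranked 14 from the lowest among the 20368 genes tested. The other 11 non-clustered protocadherins measured, cousins of Pcdh10 in the same family of adhesion molecules, had set differences between -0.32 and 0.26. Of 148 measured guidance pathway genes, 5 differed between the sets by more than a log2 of 1, or 3.38%, against 5.98% of all genes tested. The other 4 were Cntn5, Cntn6, Epha6 and Epha10, all higher in set B and each with group means of 8.94 to 36.2 normalized counts, whereas Pcdh10 averaged 4083 ± 2719 in the deletion libraries and 1316 ± 987 in the controls (SD, n = 3). Pcdh10 overlaps the annotated antisense gene 1700027H10Rik, which had at most 5.81 normalized counts.

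Several marker lists had fitted differences between the sets as well. Summed over the list, globose basal cell markers were at 3260 to 4760 normalized counts in the deletion libraries and 3379 to 4781 in the controls, and the fitted difference between sets was below 0 (B minus A) for all 5. It was below 0 for all 5 horizontal basal cell and all 6 endothelial markers too. The globose basal cell sums separated the sets. They were 4760, 4606 and 4781 in set A (deletion replicates 1 and 2, control replicate 1). In set B (deletion replicate 3, control replicates 2 and 3) they were 3260, 3690 and 3379. The sums of the horizontal basal cell and endothelial lists did not separate the sets, however. Deletion replicate 2 (set A) lay below deletion replicate 3 (set B) in both. The sums were 4481 against 4694 for horizontal basal cells and 2057 against 2086 for endothelial cells. Replicate 1 was the highest library of each group in both lists. All 8 mature sensory neuron markers had a fitted difference above 0, with a median log2 of 0.23. Their sums separated the sets too, at 358687 to 417709 in set A and 439226 to 484307 in set B. The part of these cell types in the spread of Pcdh10, Sema3f and the Kirrel genes was not tested. In whole mucosa fewer cells of a type and less RNA per cell cannot be told apart.

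**Figure D3:**
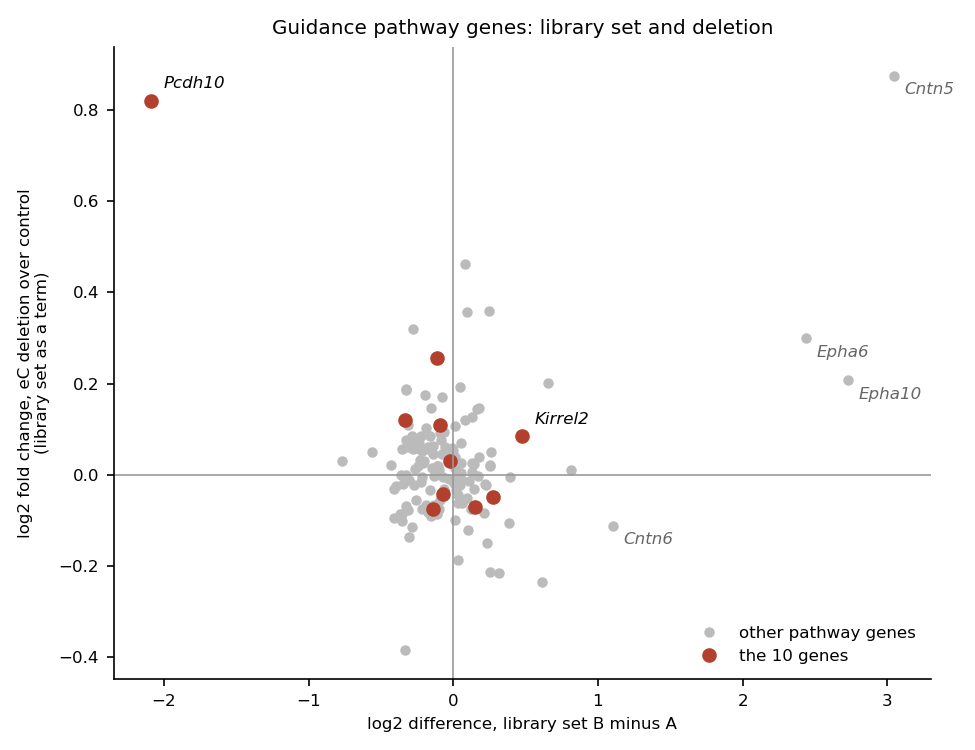
Log2 difference between library sets (B minus A, horizontal axis) against the log2 fold change of the deletion over control with the set as a term (vertical axis) for the 148 measured guidance pathway genes, with the 10 genes described here in red and the others in grey. Pcdh10 lies alone at -2.09 and 0.82, and the 4 genes far to the right have low counts.

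When each gene was divided by the summed count of the 8 mature sensory neuron markers, 3 of the 10 became steadier across the 6 libraries. Kirrel3 had 3.34 ± 0.15 counts per 1000 marker counts in the deletion libraries and 3.39 ± 0.07 in the controls (SD, n = 3), and its coefficient of variation over the 6 libraries was 3.16%, against 12.6% for the normalized counts. For Robo2 it was 3.89% against 10.1%, with 11.6 ± 0.28 per 1000 in the deletion libraries and 11.6 ± 0.65 in the controls. Kirrel2 remained at 14.3%, against 21.8%. For the other 7 genes the coefficient of variation was larger after division, and for Sema3a it was 11.1% against 2.23%. These are descriptions over the same 6 libraries, and the marker sum is shared by all 10 values. That sum was higher in each library of set B (439226 to 484307) than in any of set A (358687 to 417709). Kirrel2, Kirrel3 and Robo2 were those of the 10 with a fitted set difference above 0 (B minus A: 0.47, 0.27 and 0.15). The part of the library set in their steadier values was not tested.

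Per kilobase of annotated exon, the scale on which levels of different genes can be compared, Kirrel2 was the most abundant of the 10. It had 3945 ± 859 normalized counts per kb over the 6 libraries (SD), followed by Plxna1 with 861 ± 134, Nrp2 with 537 ± 32.7 and Nrp1 with 330 ± 26.5. The ranges of these first 3 did not touch those of their neighbours. From Nrp1 downwards the ranges of neighbours overlapped: Sema3f had 296 ± 49.1, Robo2 289 ± 29.3, Slit1 264 ± 31.9, Kirrel3 222 ± 28.0, Pcdh10 169.9 ± 149.5 and Sema3a 112 ± 2.49 normalized counts per kb. Sema3a, last by the mean, was above Pcdh10 in all 3 libraries of set B and below it in all 3 of set A. The lengths are those of all annotated exons of a gene, so genes with unused exons are placed too low.

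The balance within pairs of genes was compared library by library as a ratio of normalized counts, as a description with no test. Sema3a over Nrp1, which axons are known to carry in opposite amounts, was 0.478, 0.466 and 0.526 in the deletion libraries and 0.484, 0.429 and 0.503 in the controls. Nrp1 over Nrp2 was 0.491, 0.524 and 0.514 in the deletion libraries and 0.479, 0.547 and 0.494 in the controls. For both pairs the values of the groups interleaved. Sema3f over Nrp2, a ligand and its receptor, was 0.293, 0.259 and 0.239 in the deletion libraries and 0.239, 0.216 and 0.203 in the controls, so that the groups met at their edge. Slit1 over Robo2 was 0.379, 0.368 and 0.2999 in the deletion libraries and 0.314, 0.305 and 0.254 in the controls, which overlapped. The means differed by a log2 of 0.26 for each of these 2 pairs, deletion minus control. In both pairs the set A libraries had the higher ratios within each group, and more of the deletion libraries than of the controls are of set A. The ratios were not fitted with the set as a term. Kirrel2 over Kirrel3 was 8.93, 12.9 and 11.4 in the deletion libraries and 9.08, 11.1 and 11.3 in the controls, with replicate 1 the lowest of each group.

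**Figure D4:**
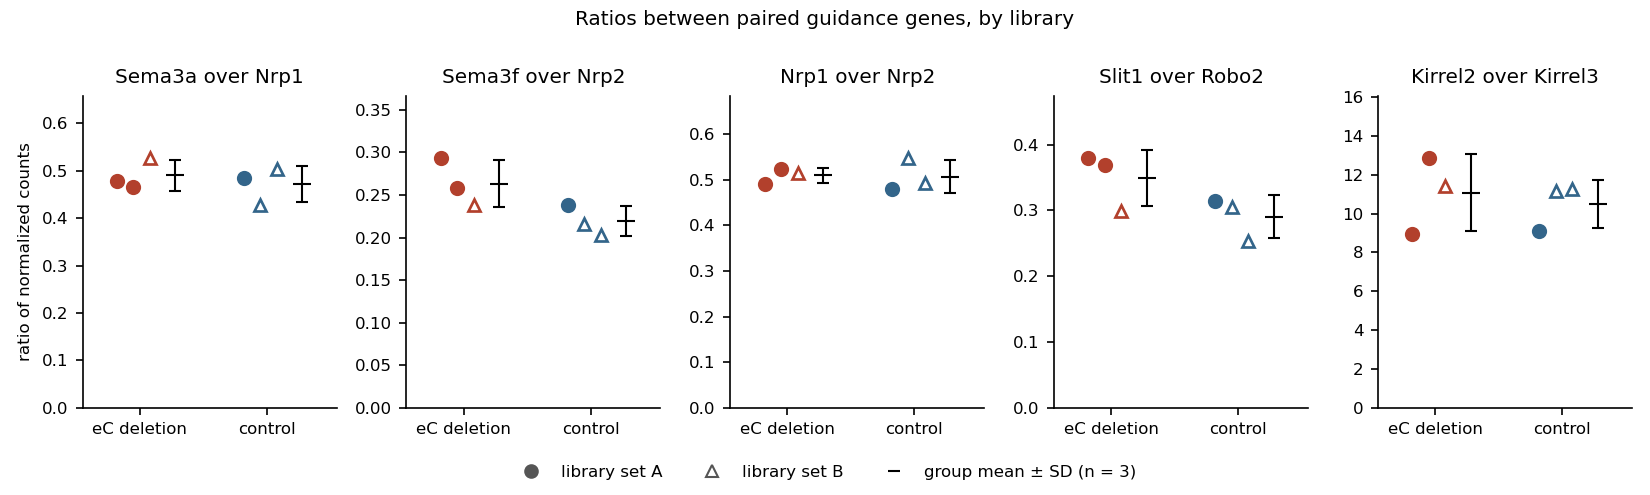
Ratios of normalized counts within 5 pairs of guidance genes in each library (linear axes from 0), with the deletion libraries left of the controls, set A as filled circles, set B as open triangles, and the group mean ± SD. Sema3a over Nrp1 and Nrp1 over Nrp2 interleave between the groups, and Sema3f over Nrp2 and Slit1 over Robo2 are higher on average in the deletion libraries but overlap the controls.

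Over 9 lists with 148 measured guidance genes, the 10 included, limma called 0 and had 0 at an unadjusted p under 0.05. EdgeR and DESeq2 each called 0, with 2 at an unadjusted p under 0.05, and limma voom called 0, with 1. Over all genes tested the shares were 0.0736% called and 2.7% at an unadjusted p under 0.05 by limma, and 2.74% at such a p by edgeR. That last share was not taken for DESeq2 and limma voom, so their counts stand without it. With so few calls among all genes, a count of 0 says nothing particular about these pathways. The median log2 fold change of the 148 was 0.04, with 84 above and 64 below 0, and 0.01 in the model with the library set. Of all 20368 genes tested 10687 were above 0 and 9681 below. For 137 of the 148 the 95% confidence interval lay within a log2 of 1 on either side.

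Of the 11 neuropilins and plexins 9 had a fold change above 0, with a median log2 of 0.10, and of 0.07 in the model with the set. Over all genes tested, 10687 of 20368 were above 0. Plxna2, another plexin A receptor, had 1960.4 ± 321 normalized counts in the deletion libraries and 1589 ± 160.0 in the controls (SD, n = 3; log2 fold change 0.29 ± 0.13, SE), and a log2 fold change of 0.19 ± 0.07 (SE) in the model with the set. Plxna3 and Plxna4, further neuropilin partners, were at log2 fold changes of 0.05 and 0.10. Plxnd1, a receptor for Sema3e, was at 0.21, and at 0.11 in the model with the set. Plxnc1, the receptor of Sema7a, was at 0.03, and its sign turned in that model, to -0.078. Of the 20 semaphorins 13 were above 0, with a median of 0.08, and of 0.03 in the model with the set. Sema3c, another secreted class 3 semaphorin, had a log2 fold change of 0.20 ± 0.14 (SE), and Sema7a, a membrane-anchored one of sensory axons, 0.24 ± 0.15 (SE); in the model with the set they were at 0.15 and 0.17. None of these passed (adjusted p = 0.982 each and 0.993 for Plxnc1, limma; 1.00 each in the model with the set).

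The 10 Slits, Robos and their adaptors had a median log2 fold change of 0.10, which was 0.01 in the model with the set. Robo1, the relative of Robo2, had 4631 ± 443 normalized counts in the deletion libraries and 4437 ± 646 in the controls (SD, n = 3). Slit2 and Slit3 were at log2 fold changes of 0.09 ± 0.10 and 0.30 ± 0.16 (SE), and at 0.03 and 0.19 in the model with the set, where Robo1 was at -0.0049.

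The 19 immunoglobulin adhesion molecules had a median log2 fold change of -0.05, with 13 below 0, and of -0.03 in the model with the set. Kirrel, the third member of the Kirrel family, was at 0.20 ± 0.09 (SE), and Nphs1, which encodes the Kirrel partner nephrin, was at -0.44 ± 0.27, and at -0.24 ± 0.18 in the model with the set. Nphs1 is 1 of 11 measured pathway genes on chromosome 7, whose log2 fold changes lay between -0.44 and 0.24. Ncam2, an adhesion molecule of olfactory axons, was at -0.08 and Cntn4, a contactin used in glomerular targeting in mice, at -0.15, which was -0.08 in the model with the set. Among the 12 non-clustered protocadherins, with a median of 0.01, Pcdh17 and Pcdh19 were at -0.02 and -0.16.

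The 21 ephrins and Eph receptors had a median log2 fold change of 0.00, and of -0.03 in the model with the set. Efna5 was at 0.13 ± 0.11 (SE) and its receptor Epha5 at -0.14 ± 0.17 (SE), and in the model with the set they were at 0.055 and -0.0059. Leaving out single libraries moved Epha5 between -0.36 (without control replicate 1) and -0.0039 (without control replicate 3). The 14 netrins and netrin receptors had a median of 0.06, and the 21 genes of semaphorin signal transduction 0.06 (0.04 and 0.02 in the model with the set), among them Dpysl2, a mediator of Sema3a signals in the growth cone, at -0.01 ± 0.07 (SE). The 20 other targeting molecules had a median of -0.01. Adcy3, the adenylyl cyclase whose product links receptor signalling to Nrp1 in mice, had 43783 ± 3542 normalized counts in the deletion libraries and 43468 ± 3792 in the controls (SD, n = 3). B3gnt2, a glycosyltransferase of sensory axons, was listed at 12.1 ± 5.42 normalized counts in the deletion libraries and 14.2 ± 3.84 in the controls (SD, n = 3), but it shares its strand and span with the annotated gene Gm28048, so its reads are uncertain.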

How the data were processed

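RNA was extracted from olfactory mucosa and sequenced as ribosomal-RNA-depleted, strand-specific libraries, per the labels' protocols. STAR 2.6.0, DESeq2 and the build GRCm38.p6 are named in the submitters' processing notes; how reads were counted, and whether by strand, is not stated there, so reads of overlapping genes are uncertain. The authors deposited size-factor normalized counts, used here as a signal, for 40273 genes. They also deposited a log2 fold change (control over deletion), a test statistic (a score) and a p-value with its adjusted form.

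Every deposited value was a whole multiple of 1 read (100%, tolerance 0.001 reads), so reads were recovered. The libraries of a group differed by far more than sampling noise (chi-square per gene of at least 17.4). Genes with at least 10 normalized counts in 3 libraries were tested by limma 3.58.1 (trend option, R 4.3.3), with a pseudocount of 1. A fold change is therefore on the log2(value + 1) scale, which understates changes of low genes. edgeR 4.0.16 and DESeq2 1.42.0 ran on the recovered reads, of which edgeR called the same number of genes as limma, 15. Scripts were checked on simulated counts. Deviations of same-numbered libraries correlated at 0.65, -0.34 and 0.66. The correlations between deletion and control libraries were above 0 within a library set and below 0 across sets. They therefore cannot show whether replicate numbers pair libraries.

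Exon lengths and positions came from GENCODE vM21 (GRCm38), in which 40012 identifiers were found without version. The members, lists and motifs were chosen with earlier results of these data known. Named genes were the 10 members, partners chosen by role, and any listed gene past the threshold, of which there was none; Cntn5, Cntn6, Epha6, Epha10, marker genes and overlapping genes were named after their values were seen.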

Additional observations from a re-analysis of the deposited data

How the results depend on the processing

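The direction of Plxna1, Sema3a, Sema3f, Robo2, Slit1, Kirrel3 and Pcdh10 was the same in every alternative run on all 6 libraries or without 1 of them, and 0 of the 10 genes and 0 of the listed pathway genes passed in any of them. The count of genes called in the whole table was less stable: 15 with limma, 40 with DESeq2, 46 with the replicate block, 36 in the model with the library set and 6 to 24 without single libraries (6 without control replicate 2 or deletion replicate 2, 9 without control replicate 1, 24 without deletion replicate 3). Uncalled values near 0 changed sign. With the set as a term Kirrel2 was at 0.085, Plxnc1 at -0.078 and Robo1 at -0.0049 on the log2 scale. Without single libraries, the range was -0.076 to 0.055 for Nrp1, -0.069 to 0.042 for Nrp2, -0.25 to 0.18 for Kirrel2, -0.027 to 0.15 for Plxna3, -0.013 to 0.21 for Plxna4, -0.15 to 0.19 for Plxnc1, -0.059 to 0.15 for Robo1, -0.095 to 0.076 for Pcdh17, -0.047 to 0.027 for Dpysl2, -0.58 to 0.017 for B3gnt2 and -0.053 to 0.081 for Adcy3. The cause was not tested. The replicate block, whose numbers are not known to pair the libraries, left Pcdh10 at an adjusted p of 0.125 and Plxna1 at 0.211 (limma). Counts at an unadjusted p under 0.05 (limma) depended on the model. They were 3 of the 10 and 30 of the 148 with this block, and 3 and 16 without deletion replicate 3. The shares over all genes were not taken for these runs, so the counts cannot be read as a result about these genes. The 3 libraries a group limit the precision: the 95% confidence interval of Pcdh10 spans 0.915- to 8.95-fold, and counting error is small beside it.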
